A study of Homo sapiens with 6 samples.

Results

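A set of 10 genes was chosen by symbol as junction genes and regulators that mark the epithelial or the mesenchymal state of a cell: CDH1, CDH2, VIM, SNAI1, SNAI2, ZEB1, ZEB2, TJP1, OCLN and EPCAM. Of the 10, 8 were analysed, among 12396 genes in all; CDH1 and EPCAM were not analysed here. The measurements are RNA-seq read counts from JHH-4, a human hepatocellular carcinoma cell line that the submitters describe as epithelial-like. In the group miR372_3p, cells carried a plasmid with the primary transcript of hsa-miR-372-3p, meant to raise that microRNA. The cells of the group Control are labelled WT, with no plasmid named for them in the labels. If they carried none, an effect of the plasmid or its delivery cannot be told apart from one of the microRNA. Each group held 3 libraries, which the series calls technical replicates, so errors and p-values reflect the spread among libraries only, which may be technical. All libraries came from 1 cell line in bulk, where a change in the share of cells that express a gene cannot be told apart from a change in RNA per cell.

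Epithelial cells are held together by adherens junctions, built on cadherins, and sealed by tight junctions, in which occludin spans the membrane and ZO-1 (the product of TJP1) ties it to actin. The zinc finger repressors SNAI1, SNAI2, ZEB1 and ZEB2 bind E-box sequences and lower epithelial genes such as CDH1 and OCLN, while the mesenchymal state is marked by N-cadherin (CDH2) and the intermediate filament vimentin (VIM). Hepatocytes differ from most epithelia in carrying N-cadherin beside E-cadherin. A microRNA acts by pairing its seed with sites in 3′ UTRs, which lowers the messenger RNA or its translation.

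The overexpressed strand is shown with its seed, bases 2 to 8, in capitals (RefSeq, GRCh38.p14, chromosome 19, plus strand), because each member's transcript was searched for the complement of that seed. Below it stands the one stretch of a member's 3′ UTR that held at least the 6-base match, in ZEB1, with the match in capitals.
hsa-miR-372-3p: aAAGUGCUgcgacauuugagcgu
ZEB1: ctgactctcagctcctGCACTT

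The longest annotated 3′ UTR of each of the 8 genes (GENCODE 29, GRCh38) was searched for GCACTT, which pairs with seed bases 2 to 7, and for its longer forms AGCACTT and AGCACTTA. ZEB1 held GCACTT once, at chr10:31529499-31529504 on the plus strand, near the end of a 3′ UTR of 2549 nt. The other 7 genes held none, and their 3′ UTRs ran from 322 nt in VIM to 5370 nt in ZEB2. No member held AGCACTT. Among 12192 genes searched in the same way, 40.6% held GCACTT and 25.5% held AGCACTT. Of genes whose best match was GCACTT alone, 26.8% were among the genes that fell and 30.4% among those that rose. Of genes without GCACTT, the shares were 26.2% and 26.7%. Longer matches went with larger shares that fell. Of genes whose best match was AGCACTTA, 44.7% fell and 21.1% rose. For AGCACTT the shares were 29.7% and 27.2%, and for GCACTTA 31.4% and 26.5%. No member was in these longer classes. A match is a description of letters and not evidence of pairing.

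Libraries held 51072581 to 60070397 counts in genes with an ID in miR372_3p and 46851245 to 47890069 in Control. The first principal component (72.5% of the variance) divided the groups. On the second (10.2%), Control replicate 3 lay far from the other two Control libraries. Leaving it out moved no member across the threshold except OCLN, as given below. Of 8 hepatocyte markers, SERPINA1 was analysed and the other 7 were not; it had 1.77 ± 0.37 CPM in miR372_3p and 8.98 ± 0.64 CPM in Control (SD, n = 3 each). Of the non-epithelial markers, 6 of 8 for fibroblasts and pericytes, 2 of 8 for blood cells and none of 6 for endothelium were analysed.

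Of the 4 E-box repressors, SNAI1, SNAI2 and ZEB2 rose in miR372_3p and ZEB1 fell; CDH2 rose, and VIM, TJP1 and OCLN did not pass the test. ZEB2 changed most, 2.04-fold, followed by SNAI1 at 1.71-fold, SNAI2 at 1.46-fold and CDH2 at 1.34-fold, while ZEB1 was 1.31-fold lower. The counts of members, 4 that rose and 1 that fell of 8, are read against the whole transcriptome, where 26.8% of genes rose and 27.7% fell at an edgeR adjusted p under 0.05, 54.5% in all. The median log2 fold change was 0.27 over the 8 members and 0.0013 over all genes tested. The median absolute log2 fold change was 0.41 over the 8 members and 0.22 over all genes.

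SNAI1, the repressor Snail, had normalised counts of 3.25, 3.20 and 3.41 CPM (counts scaled to 1000000 per library) in miR372_3p replicates 1 to 3, against 2.02, 1.78 and 1.98 CPM in Control replicates 1 to 3. Every miR372_3p library lay above every Control library. The counts behind these values were 195, 162 and 191 in miR372_3p and 95, 83 and 96 in Control, the lowest of any member. This gave a log2 fold change of 0.77 ± 0.16 (standard error; 95% interval 0.41 to 1.13; edgeR adjusted p = 0.00245). SNAI1 has an annotated pseudogene copy, SNAI1P1, and the sources used here do not say how shared reads were assigned.

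SNAI2, the repressor Slug, had 10.2, 9.91 and 9.71 CPM in miR372_3p and 7.09, 6.59 and 6.67 CPM in Control. The groups did not overlap. The log2 fold change was 0.55 ± 0.091 (95% interval 0.34 to 0.75; edgeR adjusted p = 0.000684). The 95% intervals of SNAI1 and SNAI2 overlap.

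The pair of ZEB genes went in opposite directions. ZEB2 (chromosome 2, 144364364 to 144524583, minus strand) had 16.1, 16.2 and 16.1 CPM in miR372_3p and 8.14, 8.97 and 6.67 CPM in Control. The 3 miR372_3p libraries lay close together and above all Control libraries, and Control replicate 3 was the lowest library. ZEB2 had a log2 fold change of 1.03 ± 0.11 (95% interval 0.79 to 1.27; edgeR adjusted p = 3.45e-05), and 0.91 without Control replicate 3. Among all 12396 genes ZEB2 ranked 727 by absolute log2 fold change.

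ZEB1 (chromosome 10, 31318495 to 31529814, plus strand) had 21.4, 22.5 and 20.9 CPM in miR372_3p and 27.8, 28.1 and 28.7 CPM in Control. Every miR372_3p library lay below every Control library. Its log2 fold change was −0.39 ± 0.057 (95% interval −0.51 to −0.26; edgeR adjusted p = 0.000336). ZEB1 and ZEB2 encode related zinc finger and homeodomain proteins, and their 95% intervals do not share a value. Exons of ZEB1 overlap those of ZEB1-AS1 and exons of ZEB2 those of ZEB2-AS1 on the opposite strand, and likewise VIM with VIM-AS1 and AL133415.1 and CDH2 with AC110015.1. The library kit does not mark strand, so reads of these partners cannot be told apart from those of the gene. ZEB2 also has an annotated pseudogene copy, ZEB2P1, with the same limit as for SNAI1.

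The ratio of ZEB2 to ZEB1 within a library does not depend on scaling between libraries. By counts, it was 0.754, 0.718 and 0.771 in miR372_3p and 0.292, 0.319 and 0.232 in Control. On the log2 scale the ratio averaged −0.42 ± 0.052 in miR372_3p and −1.84 ± 0.24 in Control (SD, n = 3 each), a difference of 1.42. By the deposited FPKM, a level scaled to transcript length and to depth, ZEB2 stood at 0.681, 0.506 and 0.504 of ZEB1 in miR372_3p and at 0.269, 0.267 and 0.155 in Control. ZEB1 remained the higher of the pair in all 6 libraries. This ratio was chosen after its values were seen and was given no test.

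**Figure D1:**
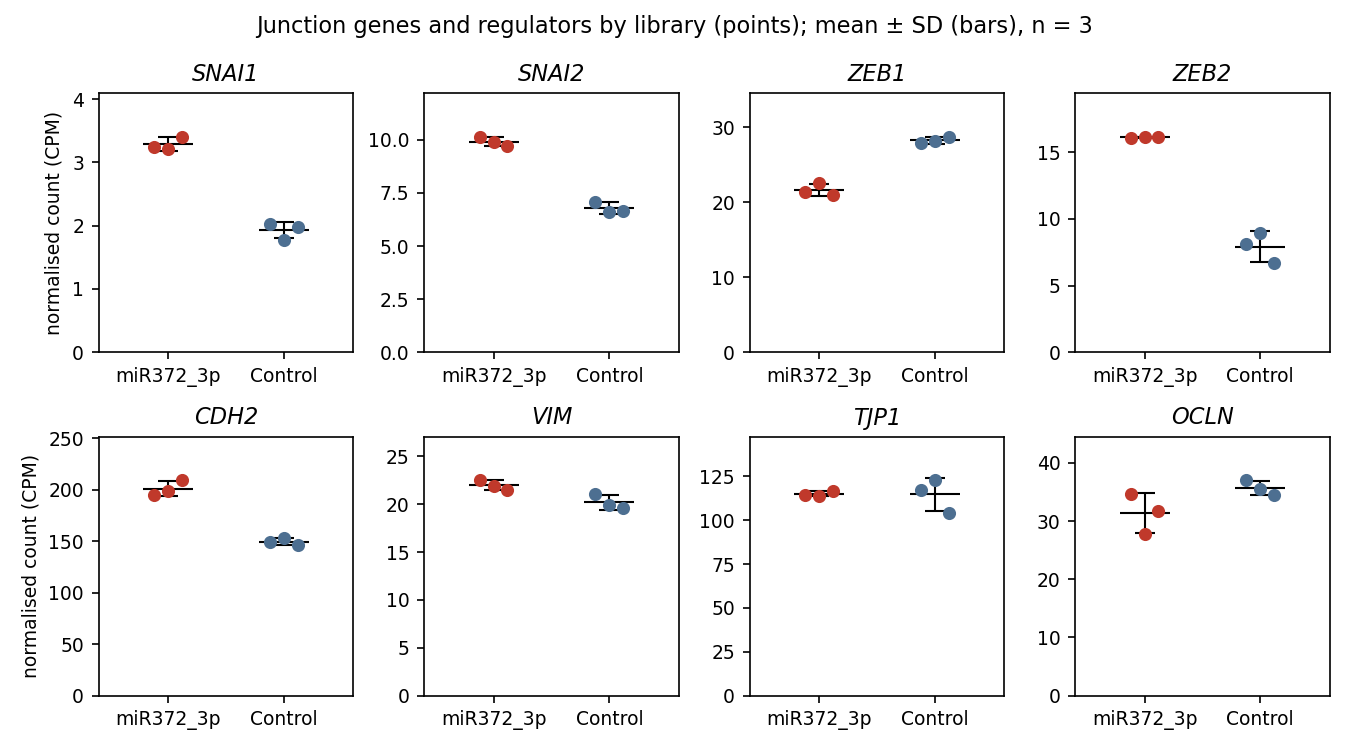
Normalised counts (CPM, linear axes from 0) of the 4 repressors (upper row) and of 4 junction and filament genes (lower row) in each library, with miR372_3p left and Control right; bars give the mean ± SD of 3 libraries. Points of the 2 groups do not overlap for SNAI1, SNAI2, ZEB1, ZEB2, CDH2 and VIM, and overlap for TJP1 and OCLN.

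CDH2 (chromosome 18, 27950966 to 28177446, minus strand), the gene for N-cadherin, had 195, 199 and 209 CPM in miR372_3p and 149.6, 152.6 and 146.4 CPM in Control. The groups did not overlap. Its log2 fold change was 0.43 ± 0.040 (95% interval 0.34 to 0.52; edgeR adjusted p = 1.53e-05). CDH2 had the largest counts of any member, 10041 to 11727 in miR372_3p and 7022 to 7110 in Control, and the smallest standard error.

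VIM (chromosome 10, 17228259 to 17237593, plus strand), the gene for vimentin, had 22.5, 21.9 and 21.5 CPM in miR372_3p and 21.1, 19.9 and 19.6 CPM in Control. The miR372_3p libraries were all above the Control libraries, by a margin that did not pass the test. The log2 fold change was 0.12 ± 0.062 (95% interval −0.019 to 0.26; edgeR adjusted p = 0.128). By the deposited FPKM the groups overlapped, with 10.3, 9.21 and 9.24 FPKM in miR372_3p and 9.65, 7.98 and 7.61 FPKM in Control.

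Neither of the 2 tight junction genes among the members passed the test. TJP1, the gene for the scaffold ZO-1, had 114.7, 113.9 and 116.7 CPM in miR372_3p and 117, 123 and 104 CPM in Control. Control replicate 2 was the highest library and Control replicate 3 the lowest, and the groups overlapped. Its log2 fold change was 0.0035 ± 0.057 (95% interval −0.12 to 0.13; edgeR adjusted p = 0.963), and its sign turned with the scaling and with the library left out.

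OCLN, the gene for occludin, had 34.6, 27.8 and 31.8 CPM in miR372_3p and 37.0, 35.5 and 34.5 CPM in Control. miR372_3p replicate 1 lay within the Control range and the other two lay below it. The log2 fold change was −0.18 ± 0.076 (95% interval −0.35 to −0.012; edgeR adjusted p = 0.0672), so OCLN did not pass. It passed without miR372_3p replicate 1 (−0.26, edgeR adjusted p = 0.0189) and without Control replicate 3 (−0.21, edgeR adjusted p = 0.0486), and leaving out miR372_3p replicate 2 gave −0.11 (edgeR adjusted p = 0.204). OCLN has an annotated pseudogene copy, OCLNP1, which leaves the division of shared reads uncertain in the same way.

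**Figure D2:**
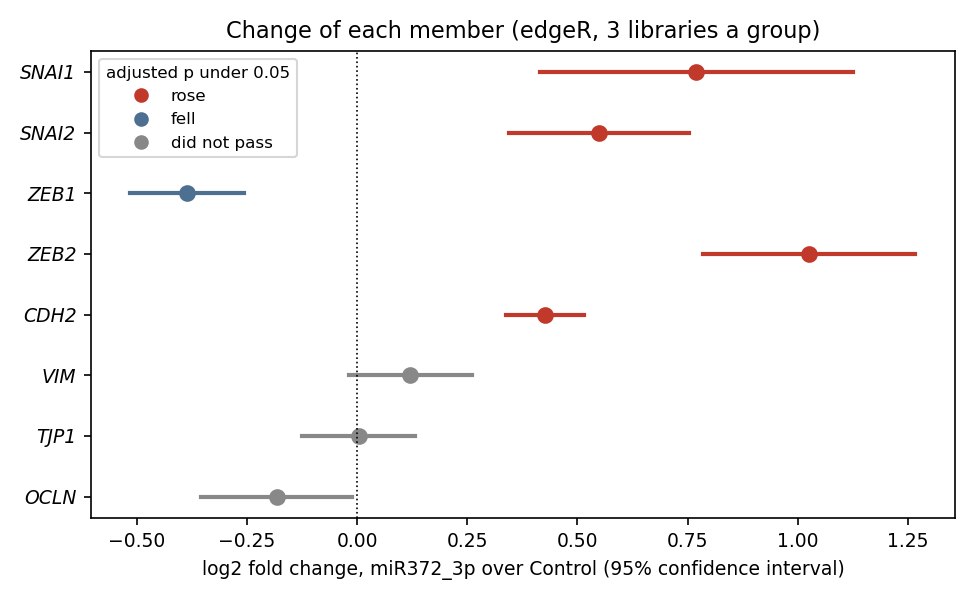
Log2 fold change of miR372_3p over Control for each member (points) with its 95% confidence interval (lines) from edgeR, 3 libraries a group; colours mark genes that rose, fell or did not pass at an adjusted p under 0.05. ZEB2 stands furthest right at 1.03 and ZEB1 furthest left at −0.39, and the interval of TJP1 spans 0 evenly.

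All 8 members were above the lowest total in the table, 208 counts over the 6 libraries, within the Control libraries alone: the smallest Control total was 274 counts, for SNAI1. In 5 members every miR372_3p library lay above every Control library and in 1 member below, against 30.7% and 31.4% of all genes, 62.2% together. Log2 fold changes of the members in the authors' deposited table differed from those computed here by at most 0.000822. The authors' deposited table gives OCLN a p-value of 0.0278, and its unadjusted edgeR p was 0.0386.

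Levels of different genes were compared per length, by the deposited FPKM. In Control the order was CDH2 (30.6 ± 0.27 FPKM), TJP1 (15.04 ± 0.75), OCLN (9.78 ± 0.26), VIM (8.42 ± 1.1), ZEB1 (4.40 ± 0.16), SNAI2 (2.94 ± 0.062), SNAI1 (1.01 ± 0.078) and ZEB2 (1.01 ± 0.26; SD, n = 3 each). Libraries of OCLN and VIM overlapped, as did those of SNAI1 and ZEB2, and the other neighbours did not. CDH2 led the members in a line labelled epithelial-like, and VIM stood near the middle of all genes, at percentile 48.4 of Control FPKM against 80.7 for CDH2 and 10.0 for ZEB2.

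In miR372_3p the order was CDH2 (41.4 ± 1.5 FPKM), TJP1 (14.8 ± 0.20), VIM (9.57 ± 0.60), OCLN (8.35 ± 1.2), SNAI2 (4.12 ± 0.14), ZEB1 (3.54 ± 0.18), ZEB2 (1.98 ± 0.26) and SNAI1 (1.73 ± 0.066; SD, n = 3 each). Libraries of VIM and OCLN overlapped and the other neighbours did not. SNAI2 stood above ZEB1 in all 3 miR372_3p libraries, with 3.99 to 4.28 FPKM for SNAI2 and 3.35 to 3.69 FPKM for ZEB1. In Control it stood below, with 2.87 to 2.98 FPKM for SNAI2 and 4.25 to 4.57 FPKM for ZEB1.

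**Figure D3:**
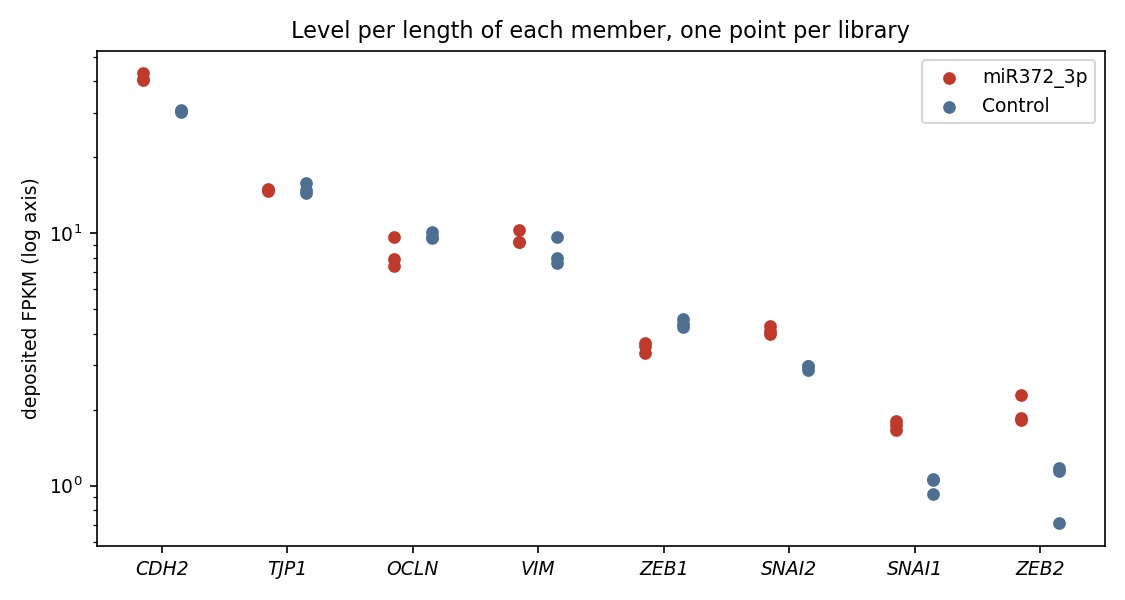
Deposited FPKM of each member in each library on a log axis, ordered by the Control mean, with miR372_3p left and Control right within each gene. CDH2 is the highest member in both groups, and SNAI2 lies above ZEB1 in miR372_3p and below it in Control.

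E-boxes of the form CAGGTG, the motif that the Snail and ZEB proteins bind, were sought on both strands (CAGGTG or CACCTG) in RefSeq promoter windows (GRCh38.p14) that reach from 250 bases before to 50 after an annotated start. SNAI1 and SNAI2 had no entry. Of 17 windows for the other 6 genes, 5 held the motif: 2 of 2 for OCLN, 2 of 7 for ZEB1 and 1 of 4 for TJP1, with 0 of 2 for CDH2, 0 of 1 for ZEB2 and 0 of 1 for VIM. Among all 35116 windows, 20.6% held it, and among 14798 windows of genes analysed, 18.3%. How many windows held it more than once was not counted. The windows with the most matches in OCLN and in ZEB1 are shown with the E-boxes in capitals, because OCLN is a junction gene that Snail proteins are known to repress and ZEB1 is the repressor that fell. The OCLN window is chr5:69492540-69492839 on the plus strand, with matches that begin 133 bases before the start and at base 36 after it. The ZEB1 window is chr10:31318966-31319265 on the plus strand, with matches that begin 242 and 85 bases before the start and at base 34 after it.
OCLN: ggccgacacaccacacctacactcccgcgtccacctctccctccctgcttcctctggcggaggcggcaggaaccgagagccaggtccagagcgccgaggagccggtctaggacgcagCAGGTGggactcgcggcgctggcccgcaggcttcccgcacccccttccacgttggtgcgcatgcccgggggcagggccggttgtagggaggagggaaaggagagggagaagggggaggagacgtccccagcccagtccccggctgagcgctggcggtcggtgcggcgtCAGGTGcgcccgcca
ZEB1: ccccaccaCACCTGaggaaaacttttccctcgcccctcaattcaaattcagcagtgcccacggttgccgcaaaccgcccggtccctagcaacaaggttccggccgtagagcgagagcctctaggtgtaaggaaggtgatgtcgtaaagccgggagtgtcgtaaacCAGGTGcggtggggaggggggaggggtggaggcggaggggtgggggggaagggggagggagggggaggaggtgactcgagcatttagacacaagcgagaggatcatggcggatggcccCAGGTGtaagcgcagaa
A motif in a window says nothing about whether a protein was bound there in these cells.

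Other genes of the same structures and programmes came from 6 further lists, each given by its counts, its median and the up to 3 genes past the threshold with the largest change. Of 16 adherens junction genes analysed, 6 rose (37.5%), 3 fell (18.75%) and 7 did not pass, against 26.8% of all genes that rose and 27.7% that fell. Their median log2 fold change was 0.025. CDH6 (K-cadherin) rose by 1.59 ± 0.068 on the log2 scale, with 32.3 ± 1.9 CPM in miR372_3p and 10.8 ± 0.19 CPM in Control (SD, n = 3 each). JUP (plakoglobin, a relative of beta-catenin) rose by 1.22 ± 0.069, and CDH12, another cadherin, fell by 0.68 ± 0.16 (edgeR adjusted p = 0.00514). The catenins CTNNA1 (−0.036), CTNNB1 (0.056) and CTNND1 (0.0017), which link cadherins to actin or steady them at the membrane, did not pass; CTNNB1 did without Control replicate 3 (0.11, edgeR adjusted p = 0.0268).

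Of 31 tight junction and polarity genes analysed, 16 rose (51.6%) and 10 fell (32.3%), with a median of 0.20, against 26.8% of all genes that rose and 27.7% that fell. CLDN4, a claudin, rose by 2.44 ± 0.15 on the log2 scale, with 24.1 ± 2.7 CPM in miR372_3p and 4.43 ± 0.96 CPM in Control (SD, n = 3 each). MARVELD1 rose by 2.05 ± 0.13. LSR (angulin-1), which recruits tricellulin to corners where cells meet, fell by 1.14 ± 0.060, with 32.3 ± 0.56 CPM in miR372_3p and 71.4 ± 5.4 CPM in Control (SD, n = 3 each).

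Of 9 desmosome genes, 6 rose (66.7%, against 26.8% of all genes) and 1 fell (11.1%, against 27.7%), with a median of 0.27. The plakophilin PKP2 rose by 0.82 ± 0.061. PKP3, a second plakophilin, rose by 0.61 ± 0.18 (edgeR adjusted p = 0.0152), and did not pass without miR372_3p replicate 1 (0.46, edgeR adjusted p = 0.0718). PERP, a desmosomal membrane protein and p53 target, fell by 0.58 ± 0.036, with 169 ± 1.7 CPM in miR372_3p and 253 ± 7.4 CPM in Control (SD, n = 3 each).

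Of 30 regulators other than the members, 7 rose (23.3%, against 26.8% of all genes), 11 fell (36.7%, against 27.7%) and 12 did not pass, with a median of −0.065. Without Control replicate 2, 10 rose and 10 fell. ID1, an inhibitor of basic helix-loop-helix factors, fell by 0.84 ± 0.049. ELF3, an epithelial ETS factor, fell by 0.71 ± 0.080, and FOXA2, a forkhead factor of liver and gut, fell by 0.62 ± 0.063. No regulator changed 2-fold, whereas ZEB2 among the members did.

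Of 15 epithelial surface and keratin genes, 8 rose (53.3%, against 26.8% of all genes) and 6 fell (40.0%, against 27.7%), with a median of 0.21. The 3 with the largest change fell. CEACAM1, an adhesion molecule, fell by 2.05 ± 0.29, the receptor gene ERBB3 fell by 1.73 ± 0.11, and the anchoring filament gene LAD1 fell by 1.597 ± 0.081. CEACAM1 was low, at 0.68 ± 0.18 CPM in miR372_3p and 2.79 ± 0.86 CPM in Control (SD, n = 3 each), and a minimum of 5 CPM removed it. The keratin genes of the list, KRT7, KRT8, KRT18, KRT19 and KRT20, all rose. KRT18 had 1441 ± 18.3 CPM in miR372_3p and 581 ± 45.0 CPM in Control (SD, n = 3 each). Keratins have close paralogs and processed copies, so their counts are uncertain.

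Of 29 mesenchymal filament, matrix and motility genes, 15 rose (51.7%, against 26.8% of all genes), 8 fell (27.6%, against 27.7%) and 6 did not pass, with a median of 0.27. TAGLN (transgelin, an actin-binding protein) rose by 4.67 ± 0.15, with 37.6 ± 1.6 CPM in miR372_3p and 1.47 ± 0.45 CPM in Control (SD, n = 3 each). COL1A1 (a collagen chain) rose by 3.72 ± 0.20 and SPARC (a matrix glycoprotein) by 2.196 ± 0.037. Among the 8 that fell were CD44 (−0.74 ± 0.046) and the integrin chain ITGA5 (−1.09 ± 0.042). Vimentin, the usual mesenchymal marker of this kind, lay at 0.12 and did not pass. Of the 6 fibroblast and pericyte markers, 3 rose (50%, against 26.8% of all genes) and 1 fell (16.7%, against 27.7%). Their summed level was 208 to 225 CPM in miR372_3p and 163 to 184 CPM in Control. COL1A1 is one of the 6, and without it the summed level was 147 to 157 CPM in miR372_3p and 159.9 to 180.1 CPM in Control. THY1, the most abundant and the one that fell, held most of that sum. It had 123 ± 4.4 CPM in miR372_3p and 156 ± 10.6 CPM in Control (SD, n = 3 each). PDGFRB rose by 1.16 ± 0.079 on the log2 scale and PDGFRA by 1.03 ± 0.18, at 20.2 and 4.24 CPM in miR372_3p. COL1A2 and LUM did not pass. Whether another cell type had a part in these changes was not tested.

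**Figure D4:**
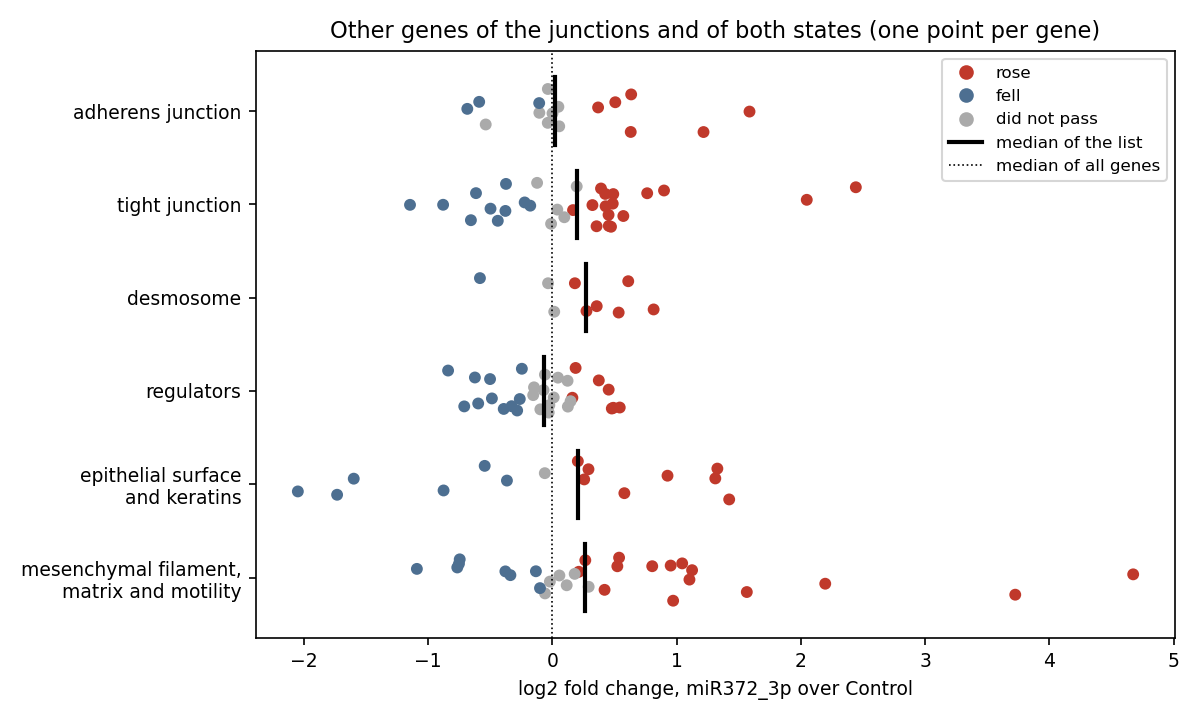
Log2 fold change of miR372_3p over Control for each gene of 6 lists (1 point per gene, spread vertically for legibility), coloured by edgeR call at an adjusted p under 0.05, with the list median (bar) and the median of all genes tested (dotted line, 0.0013). Points lie on both sides of 0 in every list, and TAGLN and COL1A1 stand furthest right.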

How the data were processed

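RNA-seq libraries of JHH-4 cells, 3 with hsa-miR-372-3p overexpressed and 3 controls, were grouped and numbered by their titles. The deposited table holds, per the file headers, raw read counts and FPKM per library, with a log2 fold change and a p-value that the authors computed between the groups. Per the submitters' processing notes, HISAT2 2.0.4, StringTie 2.2.1, DESeq2 1.38.3 and the build GRCh38 (hg38) were used; the sources used here do not give their roles, the annotation or the counting. Of 14006 rows, 12396 with a gene ID were analysed; the other 1610, unnamed loci, held 2.64 to 3.63% of counts and stayed out of library sizes and tests. 0 per-sample columns were left unused.

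The quasi-likelihood test of edgeR 4.0.16 (R 4.3.3) compared the 2 groups on TMM-scaled counts, with no block, and p-values were adjusted by Benjamini-Hochberg over 12396 genes, with a threshold of 0.05. filterByExpr removed 0 genes. CPM uses TMM-scaled library sizes. Standard errors and 95% confidence intervals come from that fit. Its calls and fold changes were tested on simulated data, but these errors and intervals were not. Far fewer genes changed in the simulation than passed here, so it cannot show how the fit does on these data. No pair of replicates agreed within sampling noise (chi-square 6.86 to 38.6 for each degree of freedom). Alternatives were other scalings, DESeq2 1.42.0, limma 3.58.1 (voom, and log2 of the deposited FPKM + 0.1), a minimum of 5 CPM, the unnamed rows, the replicate number as a block, and each library left out. Further genes were named by a rule: up to 3 genes a list, those with the largest absolute log2 fold change among genes that passed. The catenins, keratins, CD44, ITGA5, SERPINA1, THY1, PDGFRA, PDGFRB, COL1A2, LUM and the polarity genes were chosen after their values were seen. The members and lists were chosen with earlier results of these data known. Depth limits precision most for SNAI1, the member with the fewest counts.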

Additional observations from a re-analysis of the deposited data

How the results depend on the processing

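ZEB2, SNAI1, SNAI2, CDH2 and ZEB1 kept their direction and their side of the threshold under every alternative that gave a value: 15 for each gene, and 14 for SNAI1, which a minimum of 5 CPM removed. Their log2 fold changes ran from 0.91 to 1.13 for ZEB2, 0.72 to 0.80 for SNAI1, 0.47 to 0.58 for SNAI2, 0.40 to 0.45 for CDH2 and −0.42 to −0.31 for ZEB1. VIM passed in none of 15 (0.10 to 0.19). The number of members that fell was 2 in place of 1 with the replicate block, and 1 to 2 when each library was left out, because OCLN then passed. TJP1 turned sign with library totals alone (−0.0040), upper-quartile factors (−0.0045) and log2 of the deposited FPKM (−0.020), and ran from −0.063 to 0.060 when each library was left out. The catenin gene CTNND1 also turned sign, with library totals alone (−0.0066), upper-quartile factors (−0.0063) and some libraries left out (−0.014 to 0.020 over the 6). With the deposited FPKM, an alternative chosen after seeing the data, 5 genes of the mesenchymal list fell in place of 8, and PALS1 (−0.21, limma adjusted p = 0.0792) and PARD6G (0.24, limma adjusted p = 0.392) did not pass; the cause was not tested.

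The libraries share only replicate numbers: deviations of same-numbered libraries from their group means correlated at −0.136, −0.0517 and 0.103 across genes. With the replicate block, 3381 genes rose and 3428 fell, against 3323 and 3438 without it; among 45 genes run one by one, OCLN then passed (−0.19, edgeR adjusted p = 0.0346), PARD6G did not (0.47, edgeR adjusted p = 0.0601) and the other calls were the same. Tight junction genes that rose or fell were 15 and 9 with the block, and 8 regulators rose. A CDH2 to CDH1 ratio was not made, because CDH1 was not analysed here.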

Other observations

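Apical polarity genes within the tight junction list, picked out after their values were seen and given no test as a set, did not share a direction. Of the Crumbs complex genes and the PATJ relative MPDZ on that list, PATJ, CRB3 and PALS1 fell and MPDZ rose. Of all genes tested, 27.7% fell and 26.8% rose. PATJ fell by 0.88 ± 0.075 on the log2 scale, with 16.2 CPM in miR372_3p and 29.8 CPM in Control. CRB3 fell by 0.38 ± 0.11 (edgeR adjusted p = 0.0153) and PALS1 by 0.22 ± 0.062 (edgeR adjusted p = 0.0124). Without miR372_3p replicate 2 neither CRB3 nor PALS1 passed (−0.32 and −0.20, edgeR adjusted p = 0.0521 and 0.052), and PALS1 did not without miR372_3p replicate 3 (−0.20, edgeR adjusted p = 0.0529). MPDZ, a multi-PDZ relative of PATJ, rose by 0.57 ± 0.072. Of the 3 PAR6 paralogs, PARD6A fell by 0.65 on the log2 scale, PARD6B rose by 0.49, at 23.9 CPM in miR372_3p and 17.0 CPM in Control, and PARD6G rose by 0.47 ± 0.18 (edgeR adjusted p = 0.0435). PARD6G, at 2.88 CPM in miR372_3p and 2.07 CPM in Control, did not pass without miR372_3p replicate 2 or 3 or without Control replicate 1 or 2 (0.40 to 0.46, edgeR adjusted p = 0.0865 to 0.129). PARD3 (0.040) and the kinase gene PRKCI (0.097) did not pass.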
